A study of Homo sapiens with 6 samples.

Results

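The 9 genes described here, HLA-B, HLA-C, HLA-E, B2M, TAP1, TAP2, TAPBP, PSMB8 and PSMB9, are the core of the MHC class I antigen presentation pathway, and they were looked up by symbol in a table of 15585 genes. Of the 9, 4 had a row (HLA-B, HLA-C, B2M and TAPBP), and 5 had no row (HLA-E, TAP1, TAP2, PSMB8 and PSMB9). The table held RNA-seq read counts of U2OS, a line grown from a human osteosarcoma, in 6 libraries prepared 48 h after siRNA transfection. Of these, 3 came from cells that received control siRNA (siCTR) and 3 from cells that received siRNA against LSD1 (siLSD1), the histone demethylase encoded by KDM1A. All cells were transfected, no untransfected culture was compared, and the line is the sole genetic background. The labels do not state whether the 3 libraries of a group came from separate cultures, so the p-values measure the spread between these libraries, which may be technical.

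MHC class I molecules show fragments of a cell's own proteins to cytotoxic T cells. The proteasome cuts proteins into peptides, the TAP transporter moves the peptides into the endoplasmic reticulum, and a loading complex places them on a heavy chain paired with β2-microglobulin before the complex travels to the cell surface. Interferons raise many of these genes together, and all of the 9 but B2M lie in the major histocompatibility complex, a gene-dense and highly variable region of chromosome 6. Loss of LSD1 has been studied in tumour cells in connection with interferon signalling and antigen presentation.

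The 30 bases that open each coding sequence are shown because the genes differ in how often their sequence recurs in the human reference assembly, which is set beside their counts further on. They are given 5′ to 3′ on the coding strand from GRCh38 with GENCODE 44 gene models, with the start codon in capitals.
HLA-B: ATGctggtcatggcgccccgaaccgtcctc
HLA-C: ATGcgggtcatggcgccccgagccctcctc
HLA-E: ATGgtagatggaaccctccttttactcctc
B2M: ATGtctcgctccgtggccttagctgtgctc
TAP1: ATGgctagctctaggtgtcccgctccccgc
TAP2: ATGcggctccctgacctgagaccctggacc
TAPBP: ATGaagtccctgtctctgctcctcgctgtg
PSMB8: ATGgcgctactagatgtatgcggagccccc
PSMB9: ATGctgcgggcgggagcaccaaccggggac

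Each of the 9 runs occurred at 1 place on the primary chromosomes. Exact copies also lay on alternate contigs, the extra versions of variable regions that GRCh38 carries beside its chromosomes. The TAP1, TAP2, PSMB8 and PSMB9 runs recurred on 7 alternate contigs each, the HLA-E run on 6, the TAPBP run on 4, and the HLA-B, HLA-C and B2M runs on 1 each. The 4 genes TAP1, TAP2, PSMB8 and PSMB9 are neighbours: their runs begin the coding sequence at chr6:32853607-32853636 (minus strand), chr6:32838204-32838233 (minus), chr6:32843967-32843996 (minus) and chr6:32854230-32854259 (plus). The HLA-E run is at chr6:30489532-30489561 (plus), the HLA-C run at chr6:31272042-31272071 (minus), the HLA-B run at chr6:31357129-31357158 (minus) and the TAPBP run at chr6:33314012-33314041 (minus). B2M alone lies elsewhere, with its run at chr15:44711547-44711576 (plus). Thus 8 of the 9 genes are on chromosome 6.

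The libraries held 12513511 to 13561344 counted reads. KDM1A, the target of the siRNA, had 6140, 6493 and 6573 reads under siCTR against 1110, 1198 and 1246 under siLSD1, 18.5% of the control level. Of the 5 markers listed for an osteosarcoma line, ALPL had 4162 to 5411 reads and COL1A1 122 to 200, whereas RUNX2 and SPARC had at most 4 and 3 reads in any library and COL1A2 had no row. Among the blood and immune cell markers, CD14 had 4 to 22 reads in a library, PTPRC and LYZ had at most 1, and CD3E and HLA-DRA had no row.

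B2M was the single gene of the 9 with enough reads to be tested. B2M encodes β2-microglobulin, the light chain shared by all classical and most non-classical class I molecules. It had 2662, 4122 and 3303 reads in siCTR replicates 1 to 3, and 2796, 2950 and 3531 reads in siLSD1 replicates 1 to 3. The groups overlapped: siCTR replicate 2 was the highest of the 6 libraries, siCTR replicate 1 was the lowest, and all siLSD1 libraries lay between them. Per kilobase of gene length, as FPKM (reads per kilobase, scaled to the library's counted reads), the level was 108 ± 23.3 in siCTR and 99.0 ± 10.5 in siLSD1 (SD, n = 3 each). The log2 fold change of siLSD1 over siCTR was -0.13 (SE 0.15), with a 95% interval from -0.46 to 0.21, and the adjusted p was 0.751 (edgeR quasi-likelihood test, Benjamini-Hochberg adjustment over 11844 genes). That interval spans 72.7% to 116% of the control level, so with 3 libraries in each group a change of this gene within those bounds is not excluded. In bulk RNA fewer cells with a transcript and less RNA per cell cannot be told apart.

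The sign of the B2M estimate rested on 1 control library. Without siCTR replicate 2 the log2 fold change was 0.067 (SE 0.12), and without siCTR replicate 1 it was -0.27. With each of the other 4 libraries left out in turn it lay between -0.21 and -0.04, and none of these fits gave an unadjusted p under 0.05. The reads of B2M in that library were 4122 against 2662 and 3303 in its group, and its total depth of 13026699 reads lay between those of the other two. Over all genes it stood apart from its group, since chi-square divided by its degrees of freedom was 21.6 and 27.8 against the other siCTR libraries and 6.75 between those. The part of this library's difference in the B2M estimate was not tested beyond leaving it out.

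**Figure D1:**
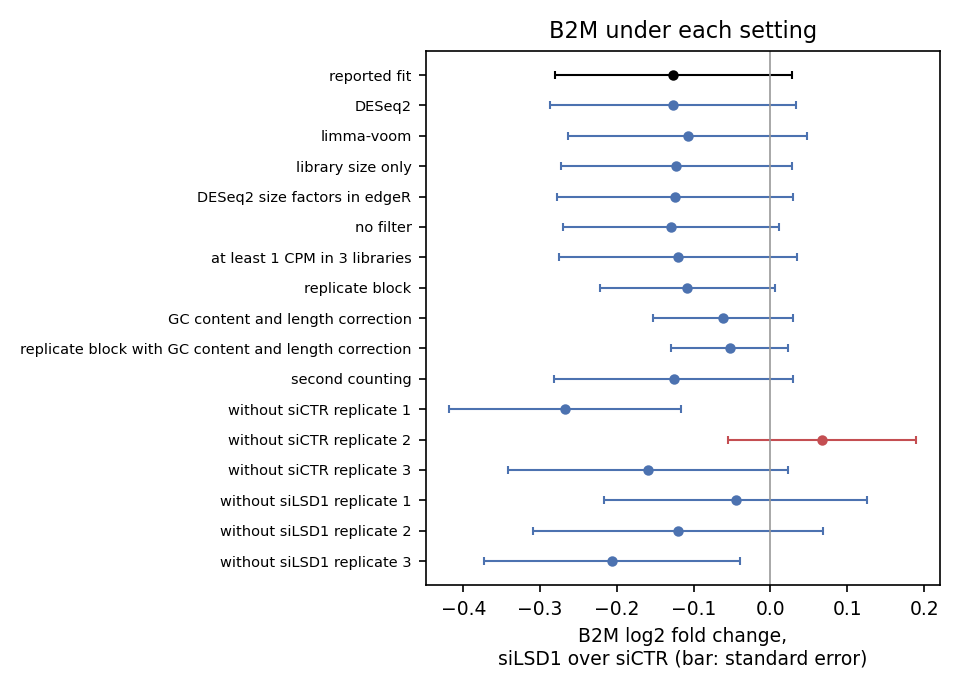
Log2 fold change of B2M (x axis, siLSD1 over siCTR; bars show the standard error) in the reported fit and under 16 other settings (y axis). The estimates lie between -0.27 and 0.067, and the fit without siCTR replicate 2, in red, is the sole one above 0.

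The 5 tested genes whose log-CPM followed B2M most closely over the 6 libraries were HIGD1A, STRAP, MED7, BCAS2 and COPS4, with Pearson's r from 0.992 to 0.999. This is a description over 6 libraries that share 1 cell line, and each of the 5 also peaked in siCTR replicate 2. HIGD1A, for instance, had 895, 1458 and 1153 reads under siCTR against 958, 1032 and 1237 under siLSD1.

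The heavy chains were almost unread. HLA-B, a classical heavy chain that presents peptides to T cells, had 11, 2 and 6 reads in siCTR replicates 1 to 3 and 0, 4 and 2 in siLSD1 replicates 1 to 3. HLA-C, a classical heavy chain that is also a ligand of natural killer cell receptors, had 0, 0 and 3 reads under siCTR against 1, 1 and 0 under siLSD1. HLA-E, a non-classical heavy chain recognised by NKG2A receptors, had no row. The groups overlapped for HLA-B and HLA-C, and neither passed the count filter, so neither was tested. HLA-B summed to 19 reads in siCTR and 6 in siLSD1. At 0 to 11 reads in a library the difference cannot be told from counting error and the spread between libraries, and the near-identical sequences of the heavy chain genes make the assignment of these few reads uncertain.

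The loading and transport genes were as empty. TAPBP, which encodes tapasin, the bridge between TAP and the heavy chain, had 3, 0 and 0 reads under siCTR against 1, 0 and 0 under siLSD1. TAP1 and TAP2, the subunits of the peptide transporter, had no row. The immunoproteasome subunits PSMB8 and PSMB9, which replace PSMB5 and PSMB6 of the constitutive proteasome upon interferon stimulation, had no row either, so no ratio of immunoproteasome to constitutive subunits could be formed for them. A second set of counts for the same libraries, in tables of the 3 pairs of libraries with the same number, held the same pattern. There HLA-B had 12, 3 and 6 reads under siCTR against 2, 5 and 3 under siLSD1, HLA-C had 1 to 7 reads, TAPBP had a row in 1 pair with 4 and 1 reads, and HLA-E, TAP1, TAP2, PSMB8 and PSMB9 again had no row.

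**Figure D2:**
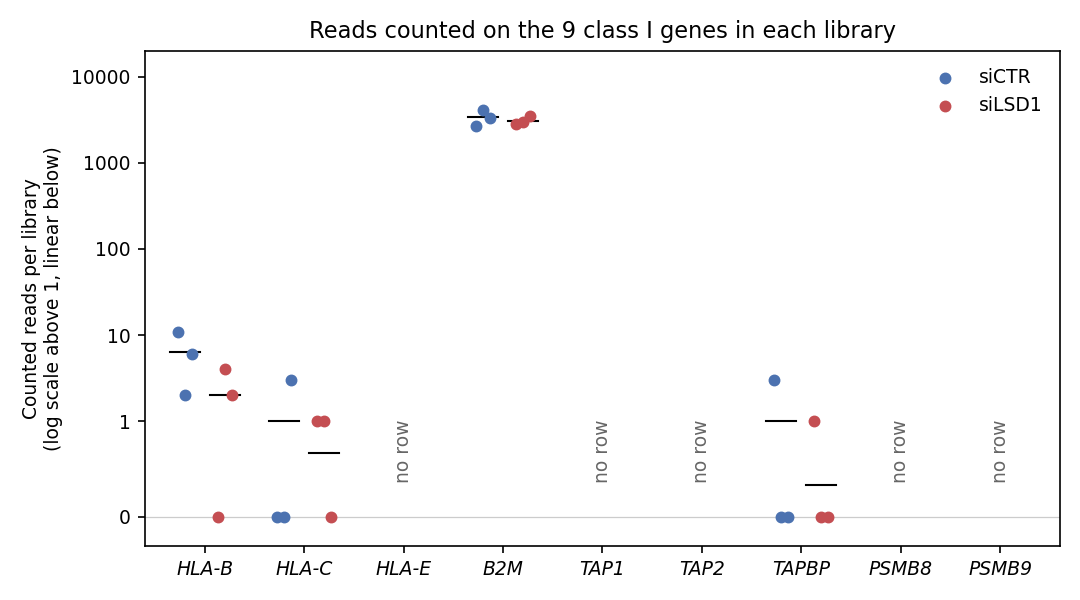
Reads counted in each library (y axis, logarithmic above 1 read and linear below) for the 9 class I genes (x axis), with siCTR in blue, siLSD1 in red and a line at the group mean. B2M has 2662 to 4122 reads, HLA-B, HLA-C and TAPBP have at most 11, and 5 genes have no row.

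Per kilobase, in FPKM, the level in siCTR was 108 for B2M, 0.306 ± 0.222 for HLA-B, 0.0479 ± 0.0829 for HLA-C and 0.0185 ± 0.0321 for TAPBP (SD, n = 3 each). B2M stood apart from the other 3 in every library. The values of HLA-B, HLA-C and TAPBP rest on 19, 3 and 3 reads over the siCTR libraries, so no order of expression is read from them.

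In the table as a whole 1.44% of the 11844 tested genes had an adjusted p under 0.05, 14.0% had an unadjusted p under 0.05, and 21.4% had groups that did not overlap. Of the 9 class I genes 1 was tested, 0 had an adjusted or an unadjusted p under 0.05 by edgeR, DESeq2 or limma-voom, and 0 of the 4 with a row had groups that did not overlap. With 1 gene tested, these counts do not describe the response of the pathway to LSD1 depletion.

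Few reads were counted on other genes of the same region too. From the start of HLA-F to the end of TAPBP (chr6:29722775-33314284) GENCODE lists 149 coding genes with usable sequence, of which 21 (14.1%) had a row and 3 (2.01%) had a mean of at least 10 reads over the 6 libraries. Among them were MICA and CCHCR1, with means of 54.2 and 63.5 reads. In the stretch of equal length before it, 57 of 96 coding genes (59.4%) had a row and 35 (36.5%) had a mean of at least 10 reads, and in the one after it 47 of 59 (79.7%) and 30 (50.8%). RPS18, a ribosomal protein of the small subunit, and TUBB, a β-tubulin, lie in the same region, are used by every cell and had no row. The low counts of the 8 chromosome 6 genes can therefore not be read as low expression in either group. RPL10A, in the stretch after the region, had a mean of 7399 reads.

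**Figure D3:**
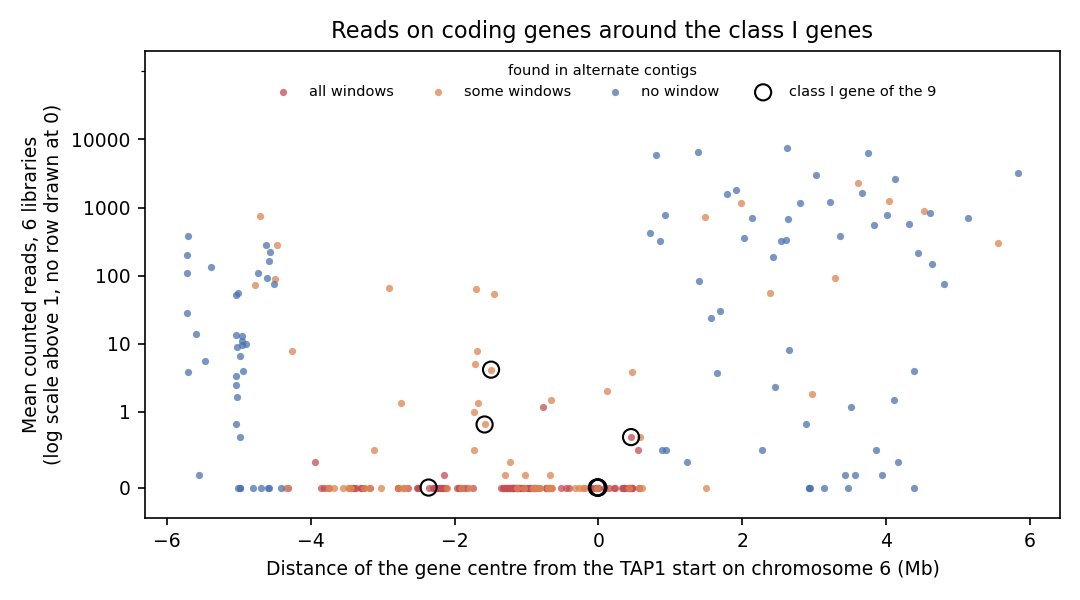
Mean counted reads of the 6 libraries (y axis, logarithmic above 1 read and linear below, genes without a row drawn at 0) for coding genes on chromosome 6, by the distance of their centre from the TAP1 start in Mb (x axis); colour gives how many 50-base windows also occur in alternate contigs, and circles mark the class I genes. Between HLA-F and TAPBP 3 of 149 genes reach a mean of 10 reads, while genes to the right reach 7399.

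The class I genes on chromosome 6 also share most of their sequence with alternate contigs. Every 50-base exonic window of HLA-E, TAP1, TAPBP, PSMB8 and PSMB9 was found unaltered in at least 1 of the 261 alternate contigs of GRCh38, as were 99.0% of the windows of TAP2, 93.1% of those of HLA-C and 77.3% of those of HLA-B. HLA-B, with the lowest of these shares, had the most reads of the 8, at most 11 in a library. The others did not follow that order: TAP2, with a lower share than TAPBP, had no row, while TAPBP had up to 3 reads in a library. Across the genome, 58.4% of the 15362 coding genes without such a window had a mean of at least 10 reads, against 22.3% of the 224 genes with over 90% but not all of their windows in alternate contigs and 1.68% of the 477 genes with all of them. Without the region from HLA-F to TAPBP these last 2 shares were 25.4% and 2.15%. RPS9, a ribosomal protein gene on chromosome 19, is found whole in alternate contigs as well and had no row.

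B2M and a group of genes on chromosome 14 did not follow that relation. In B2M 93.5% of the windows also lay in 1 alternate contig, yet the gene had 2662 to 4122 reads. PSME1, PSME2 and IRF9 had no window in an alternate contig and no row. They lie in a run from DHRS4 to NFATC4 (chr14:23953734-24379604) in which 0 of 37 coding genes had a row and 0 were found whole in alternate contigs. The genome build, and whether alternate contigs were part of the index to which the reads were aligned, are not given in the sources used here, and the part of alternate contigs in the missing reads was not tested.

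**Figure D4:**
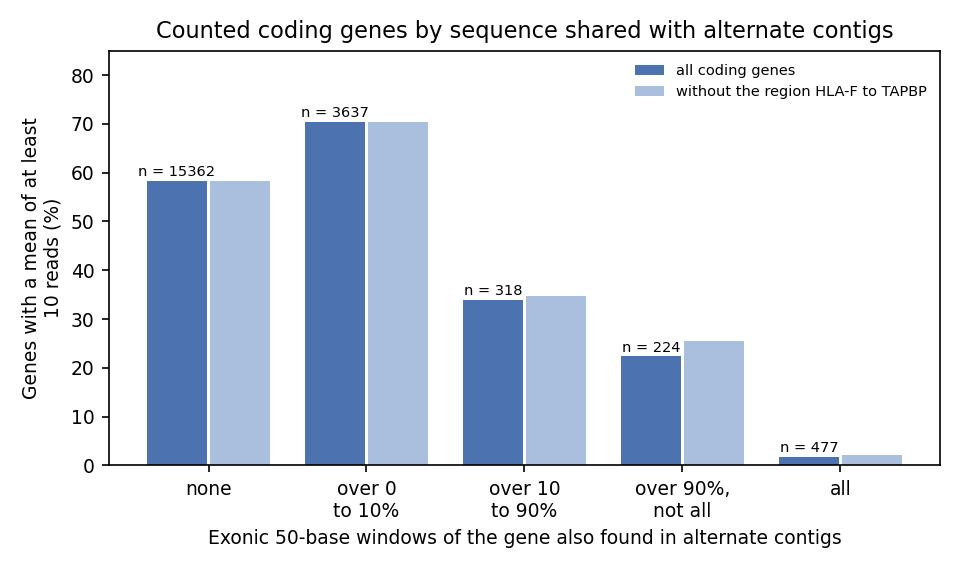
Percentage of coding genes with a mean of at least 10 reads (y axis) by the share of their 50-base exonic windows also found in alternate contigs of GRCh38 (x axis), for all coding genes in dark blue and without the region from HLA-F to TAPBP in light blue. The dark bars stand at 58.4% for genes with no such window, 70.5% for those with up to 10%, and 1.68% for genes with all windows.

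The other genes that act with the 9 in class I presentation were mostly read, and none passed the adjusted threshold unless GC content and length were corrected for. Of 20 further genes of the pathway, 17 had a row and 16 were tested, 7 with a positive and 9 with a negative log2 fold change. The median log2 fold change was -0.02, against -0.01 over all tested genes. In edgeR's quasi-likelihood test 0 had an adjusted p under 0.05, as in DESeq2 and limma-voom, and 2 of the 16 had an unadjusted p under 0.05, a share below the 14.0% of all tested genes. These were CALR and CANX, lectin chaperones of the endoplasmic reticulum that hold newly made heavy chains before peptide loading. CALR, calreticulin, had 9713, 10362 and 9964 reads under siCTR against 12668, 11219 and 12610 under siLSD1, a log2 fold change of 0.28 (SE 0.10), with an edgeR adjusted p of 0.240. CANX, calnexin, had 858, 878 and 1003 reads under siCTR against 1118, 1039 and 1186 under siLSD1, a log2 fold change of 0.28 (SE 0.11), with an edgeR adjusted p of 0.259.

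In CALR and CANX every siLSD1 library lay above every siCTR library. Groups without overlap were found in 3 of the 16 genes, the third being UGGT1, a glucosyltransferase of glycoprotein folding, a share below the 21.4% of all tested genes. Without siLSD1 replicate 2 none of the 16 genes had an unadjusted p under 0.05. CALR also lost that call without siCTR replicate 1, siCTR replicate 3 or siLSD1 replicate 1, and CANX without siCTR replicate 1, with log2 fold changes from 0.25 to 0.32 for CALR and from 0.25 to 0.34 for CANX over the 6 fits that leave out a library. Once GC content and length were corrected for, CALR and CANX had edgeR adjusted p of 0.0177 and 0.0449. The share of reads on the 25% of tested genes with the highest GC content ranged from 15.5% in siLSD1 replicate 3 to 20.3% in siLSD1 replicate 1.

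PDIA3, the thiol oxidoreductase of the loading complex, had 6980 to 8210 reads in siCTR and 7796 to 8132 in siLSD1, with an unadjusted p under 0.05 in the fit without siCTR replicate 2 alone, at a log2 fold change of 0.19. TAPBPL, a tapasin relative that edits peptides, had 24 to 34 reads in either group. ERAP1, the aminopeptidase that trims peptides in the endoplasmic reticulum, had 298, 235 and 281 reads under siCTR against 305, 322 and 359 under siLSD1, with a log2 fold change of 0.27 (SE 0.14) and an edgeR adjusted p of 0.404. Its unadjusted p was under 0.05 with the replicate block and the second counting, and without siCTR replicate 1 or siLSD1 replicate 1, where the log2 fold changes were 0.35 and 0.34. ERAP2, its partner, had 29 to 52 reads over all libraries.

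The constitutive proteasome subunits that PSMB8, PSMB9 and PSMB10 replace were well read. PSMB5 had 1615, 2193 and 1796 reads under siCTR against 1795, 1672 and 1687 under siLSD1. PSMB6 had 1645, 2259 and 1874 reads under siCTR against 1611, 1514 and 1754 under siLSD1, with a log2 fold change of -0.25 (SE 0.13) and an edgeR adjusted p of 0.415. That estimate was -0.10 without siCTR replicate 2, and -0.35 without siCTR replicate 1, and its unadjusted p was under 0.05 in the latter fit and with the replicate block. PSMB7 had 3335 to 4165 reads over all libraries.

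As for B2M, siCTR replicate 2 was the highest of the 6 libraries in all 3 of these subunits. PSMB10, the one immunoproteasome subunit encoded outside chromosome 6, had 38, 42 and 49 reads under siCTR against 52, 31 and 20 under siLSD1. Its log2 fold change was -0.33 (SE 0.32), and the highest and the lowest library were both siLSD1. Without siLSD1 replicate 1 the log2 fold change was -0.73 with an unadjusted p under 0.05, and without siLSD1 replicate 3 it was -0.038. Per kilobase, in siCTR, PSMB10 had 2.69 FPKM and PSMB7, the subunit it replaces, had 288 FPKM. HLA-F had at most 1 read in a library and HLA-G, PSME1 and PSME2 had no row.

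The transcription factors that bind class I promoters were read in both groups. Of 16 such regulators, 15 had a row and were tested, 7 with a positive and 8 with a negative log2 fold change, and the median was -0.05. By edgeR, DESeq2 and limma-voom alike 0 had an adjusted p under 0.05, and 2 (13.3%) had an unadjusted p under 0.05 by edgeR, against 14.0% of all tested genes. ATF1, a factor of the CREB family that binds the X2 box of these promoters, had 857, 1008 and 1062 reads under siCTR against 1114, 1247 and 1611 under siLSD1. Its log2 fold change was 0.44 (SE 0.14), with an edgeR adjusted p of 0.178. NFKB1, an NF-κB subunit, had 915, 751 and 924 reads under siCTR against 1099, 1040 and 1167 under siLSD1, with a log2 fold change of 0.35 (SE 0.12) and an edgeR adjusted p of 0.185. For both genes the groups did not overlap, and with the GC content and length correction the edgeR adjusted p was 0.00265 for ATF1 and 0.0345 for NFKB1.

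NLRC5, the transactivator of class I genes, had 1864, 1275 and 1696 reads under siCTR against 1693, 1336 and 1308 under siLSD1, a log2 fold change of -0.16 (SE 0.15) with overlapping groups, and -0.29 without siCTR replicate 2. Its unadjusted p was under 0.05 in that fit and with the GC content and length correction, with or without the replicate block. RFX5, which anchors NLRC5 to the promoter, had 1208 to 1535 reads and a log2 fold change of 0.01 (SE 0.11). IRF1 and IRF2 bind the interferon response element of class I promoters. IRF1 had 144, 151 and 136 reads under siCTR against 131, 126 and 122 under siLSD1, and IRF2 had 124, 129 and 150 under siCTR against 103, 115 and 114 under siLSD1. Both lay lower in every siLSD1 library than in any siCTR library, with log2 fold changes of -0.19 (SE 0.16) and -0.28 (SE 0.16), and neither had an unadjusted p under 0.05. With ATF1 and NFKB1 that made 4 of 15 regulators whose groups did not overlap, near the 21.4% of all tested genes.

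**Figure D5:**
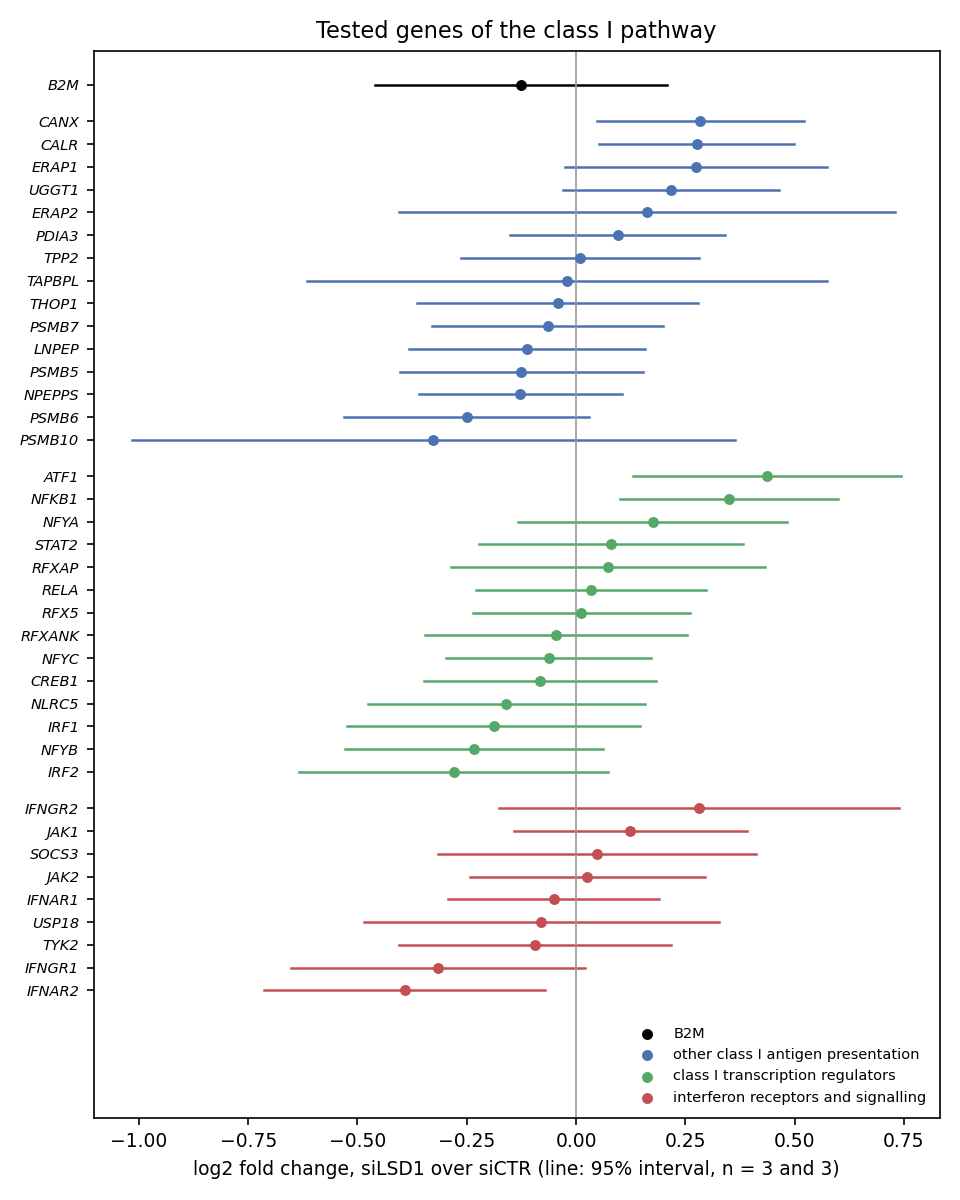
Log2 fold change of siLSD1 over siCTR (x axis; lines are 95% intervals, n = 3 libraries in each group) for B2M and tested genes of 3 further lists (y axis). The interval of B2M runs from -0.46 to 0.21, and those of CALR, CANX, ATF1, NFKB1 and IFNAR2 do not cross 0.

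Interferon signalling, which drives the class I genes in many cell types, was read at several levels. Of 10 receptors, kinases and feedback regulators 9 were tested, 0 had an adjusted p under 0.05 by edgeR, DESeq2 or limma-voom, and 1 (11.1%) had an unadjusted p under 0.05 by edgeR, against the same 14.0%. IFNAR2, a chain of the type I interferon receptor, had 227, 294 and 254 reads under siCTR against 215, 177 and 201 under siLSD1, with a log2 fold change of -0.39 (SE 0.15), an unadjusted p under 0.05 and an edgeR adjusted p of 0.248. Without siCTR replicate 2 or siLSD1 replicate 2 its unadjusted p was above 0.05, at log2 fold changes of -0.27 and -0.35. IFNGR1, a chain of the type II receptor, had 186 to 203 reads in siCTR and 141 to 191 in siLSD1, without overlap once scaled to library size, and its unadjusted p was under 0.05 under the replicate block, the GC content and length correction, both together, the second counting and the fit without siLSD1 replicate 3, at log2 fold changes from -0.45 to -0.29.

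SOCS1, an inhibitor of JAK kinases that was singled out after its values were seen, had 18, 6 and 17 reads under siCTR against 5, 3 and 2 under siLSD1. It was below the count filter, and in the fit without a filter its edgeR adjusted p was 0.113. Its unadjusted p was under 0.05 in that fit and by DESeq2. The same held without siCTR replicate 2 and without siLSD1 replicate 1, 2 or 3, and its adjusted p was under 0.05 in none of the fits.

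Of 26 interferon-stimulated genes, 20 had a row and 13 were tested, 4 with a positive and 9 with a negative log2 fold change and a median of -0.05. With edgeR, DESeq2 and limma-voom alike, 0 of the 13 had an adjusted p under 0.05. OAS3, a sensor of double-stranded RNA, was the 1 (7.69%) with an unadjusted p under 0.05 by edgeR, against 14.0% of all tested genes. By limma-voom and in the second counting MX1, an antiviral GTPase singled out after its values were seen, also had one, with 11, 10 and 15 reads under siCTR against 8, 8 and 2 under siLSD1. OAS3 had 1679, 1151 and 1843 reads under siCTR against 2096, 1969 and 2357 under siLSD1, a log2 fold change of 0.46 (SE 0.15). Its edgeR adjusted p was 0.174, or 0.0375 with the GC content and length correction. Without siCTR replicate 2, the lowest library, the log2 fold change of OAS3 was 0.29. Its unadjusted p stayed under 0.05 in each fit that left out a library.

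ISG15, a ubiquitin-like modifier, had 145, 179 and 133 reads under siCTR against 152, 106 and 77 under siLSD1, with a log2 fold change of -0.45 (SE 0.23) and overlapping groups. Its unadjusted p was under 0.05 with no filter and with the replicate block, and without siCTR replicate 3 or siLSD1 replicate 1, where the log2 fold changes were -0.56 and -0.72. RSAD2 and CXCL10, which are close to silent without interferon in many cells, had at most 2 and 1 reads in any library.

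Among 10 class I-like molecules and NKG2D ligands 6 were tested, and 0 had an unadjusted p under 0.05, a count too small to set against the 14.0% of all tested genes. MICA, a stress ligand encoded beside HLA-B, had 36, 57 and 73 reads under siCTR against 64, 45 and 50 under siLSD1. HFE, a class I-like partner of B2M that acts in iron uptake, had 273 to 284 reads in siCTR and 301 to 315 in siLSD1, and its log2 fold change was 0.14 (SE 0.12). MR1, which presents vitamin metabolites and also pairs with B2M, had 118 to 189 reads over all libraries with overlapping groups. Of 8 class II genes 2 had a row, and the 1 tested, CIITA, their transactivator, had 55 to 86 reads and a log2 fold change of -0.13 (SE 0.22). The 6 without a row lie on chromosome 6 between HLA-F and TAPBP, so their missing rows cannot be read as low expression.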

How the data were processed

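RNA-seq libraries of U2OS cells were used, 3 siCTR and 3 siLSD1, grouped by their labels. The authors aligned reads with STAR and deposited whole-number read counts per gene without normalization, and the deposited FPKM values scale these to gene length and to the reads counted. The counter, annotation and genome build are not given in the sources used here. A normalized signal that the authors deposited, counts over a size factor, was not used. The authors' fold changes and p-values were not used.

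The quasi-likelihood test of edgeR 4.0.16 was run on the counts under R 4.3.3, scaled by TMM and filtered by filterByExpr at a minimum count of 10, with no covariates. The filter left 11844 of 15585 genes, with Benjamini-Hochberg adjustment over all of them. The biological coefficient of variation was 12.6%. DESeq2 1.42.0 and limma 3.58.1 were alternatives, and the procedure was tested on simulated counts. Exonic 50-base windows of GENCODE 44 coding transcripts were matched to the alternate contigs of GRCh38 with Python 3.11.15, and 15352 rows matched a GENCODE symbol. Error estimates cover these libraries only.

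The genes, lists and tests were chosen with earlier results of these data known. Text names the 9 genes, KDM1A, list genes with an unadjusted p under 0.05, pathway genes given by the rule, and the 5 genes most correlated with B2M. ISG15, MX1, IFNGR1, UGGT1, SOCS1, RSAD2, CXCL10, HFE, MR1, MICA, CIITA and the genes that describe the 2 chromosomal regions were added after their values were seen. A few listed genes are not reported here by name.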

Additional observations from a re-analysis of the deposited data

How the results depend on the processing

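The log2 fold change of B2M kept its sign under DESeq2, limma-voom, both other scalings, both other filters, the second counting, the GC content and length correction and the replicate block, between -0.13 and -0.05. Leaving out 1 library at a time gave -0.27 to 0.067, and the sign turned without siCTR replicate 2. No setting brought an unadjusted p under 0.05. Without a filter HLA-B had an unadjusted edgeR p of 0.0761 and an adjusted p of 0.467, and HLA-C and TAPBP had adjusted p of 0.917 and 0.770.

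Of the further class I genes, 2 had an unadjusted p under 0.05. This count was 5 with the replicate block, 4 with the block and the GC content and length correction together, and 0 to 3 with 1 library left out. For the regulators it was 2, and 4 with the GC content and length correction, with or without the block, and 2 to 3 with 1 library left out. Over all tested genes 171 had an adjusted p under 0.05, 932 with the GC content and length correction, 897 with the replicate block and 1311 with both, 293 by DESeq2, 290 without a filter, and 58 to 136 with 1 library left out. The causes were not tested. Libraries with the same number deviated from their group means with correlations of 0.33, 0.074 and 0.31, and each library correlated best with its own number, but the labels do not say what a number marks. The B2M estimate with the replicate block was -0.11. Under the block ATF1, NFKB1 and OAS3 had edgeR adjusted p of 0.0104, 0.0442 and 0.00305.

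The share of genes found whole in alternate contigs with a mean of at least 10 reads was 1.68%, 2.29% with 100-base windows and 2.15% without the region from HLA-F to TAPBP, both tried after seeing the data. The planned ratios of PSMB8 to PSMB5 and PSMB9 to PSMB6 were not run because PSMB8 and PSMB9 had no row. With at most 11 reads in a library or no row, no change of the 8 chromosome 6 genes could be measured.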
